A study of Mus musculus with 6 samples.

Results

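The genes described here encode proteins that carry high-energy phosphate from the mitochondria to the myofibrils of heart muscle, that sense its depletion, or that bind the oxygen used to make it. They are the creatine kinase genes *Ckm*, *Ckmt2*, and *Ckb*, the creatine transporter gene *Slc6a8*, the adenylate kinase gene *Ak1*, the AMPK subunit genes *Prkaa2* and *Prkag1*, and the myoglobin gene *Mb*. They were taken by name, and the gene identifiers paired with these names in the authors' comparison table were joined to the table of counts. All 8 were found among the 56923 genes listed, and all 8 passed the filter on low counts, which left 17212 genes for the comparison.

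RNA was measured by mRNA-Seq in the left ventricles (LVs) of 3 mice heterozygous for the R409C substitution in *Lztr1* (*Lztr1* R409C/+) and 3 *Lztr1* +/+ mice (WT), all at 12 weeks of age and with 1 library per mouse. The labels call the tissue heart, whereas the methods of the study name the LV of hearts perfused with phosphate-buffered saline. The substitution was introduced in the germ line with CRISPR/Cas9, so that it is carried by every cell type of the heart and not by cardiomyocytes alone. The line was backcrossed to C57BL/6J, the methods state that male mice were used, and none of these mice is labelled with a drug treatment. LZTR1 is a substrate adaptor for the ubiquitination of RAS proteins, and the comparison asks how the mutation bears on gene expression in the LV.

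Cardiomyocytes spend ATP at a rate that their store of ATP could meet for only a few beats, and the phosphocreatine shuttle links supply to demand. In this shuttle, mitochondrial creatine kinase (*Ckmt2*) loads phosphate onto creatine beside the inner membrane, and cytosolic creatine kinase (*Ckm*, with a minor brain-type chain from *Ckb*) returns it to ADP at the myosin and calcium pump ATPases. Creatine is not made in quantity by cardiomyocytes and enters through the transporter encoded by *Slc6a8*. Adenylate kinase 1 (*Ak1*) joins ADP molecules into ATP and AMP, and AMP is sensed by the γ subunit of the AMP-activated protein kinase AMPK, whose main catalytic subunit in heart muscle is α2 (*Prkaa2*). Myoglobin binds oxygen in the cytosol and eases its passage to the mitochondria.

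Counts per mouse lay between 66130887 and 72641124 in all. The levels below are CPM, counts scaled to a common library total and adjusted with trimmed mean of M values (TMM) factors that ranged from 0.800 to 1.39. Mitochondrially encoded genes took 36.5%, 37.3%, and 13.8% of the counts in the WT mice, against 45.4%, 35.02%, and 29.7% in the *Lztr1* R409C/+ mice, in the order of their replicate numbers. WT replicate 3 and *Lztr1* R409C/+ replicate 1 stand apart in this share, and several of the results that rest on them are also given without both. Cardiomyocyte markers were abundant in every library, whereas the fast skeletal myosin genes *Myh1*, *Myh2*, and *Myh4* reached at most 0.072 CPM. Of the other skeletal muscle markers, *Acta1* was at 165 to 317 CPM and the rest were under 1 CPM. Of the atrial markers, *Nppa* was at 37.6 to 107 CPM, and the atrial light chain gene *Myl7* was at 0 except in *Lztr1* R409C/+ replicates 1 (0.0722 CPM) and 3 (0.262 CPM). The summed level of the 11 cardiomyocyte markers was 48300, 45220, and 43390 CPM in WT, against 33200, 40860, and 46120 CPM in *Lztr1* R409C/+ mice, lowest in *Lztr1* R409C/+ replicate 1. The 6 macrophage markers summed to between 107.7 and 111.0 CPM in WT and between 178.9 and 195.2 CPM in *Lztr1* R409C/+ mice, with all 6 higher. The 5 erythrocyte markers overlapped between the genotypes, with sums of 578.8 to 1478 CPM in WT, against 1042 to 2625 CPM in *Lztr1* R409C/+ mice. In bulk tissue, fewer cells of a type and less RNA per cell cannot be told apart.

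The genotypes were compared gene by gene with the quasi-likelihood F test of edgeR, and adjusted p-values, here and below, were computed by the method of Benjamini and Hochberg over all tested genes. None of the 8 energy transfer genes passed the adjusted threshold of 0.05, which 0.0407% of all tested genes did, 0.0349% as higher and 0.00581% as lower. At an unadjusted p under 0.05, which 8.63% of all genes met (5.77% higher and 2.86% lower), the number was also 0 of 8 by edgeR. DESeq2's Wald test gave 0 of 8 at either threshold. Of the 14874 genes to which DESeq2 gave an adjusted p, 1.06% passed its adjusted threshold, and 1584 of all 17212 tested genes had an unadjusted p under 0.05. In *Lztr1* R409C/+ mice, 3 of the 8 had a higher mean and 5 a lower one, with a median log2 fold change of -0.13 beside 0.012 over all tested genes. Without WT replicate 3 and *Lztr1* R409C/+ replicate 1, the balance became 5 higher and 3 lower with a median of 0.028, and the median was -0.055 without *Lztr1* R409C/+ replicate 1 alone. Other scalings shifted all genes together, so that signs under them are read beside the median of all tested genes, which was 0.16 with cardiomyocyte markers, 0.055 with the upper quartile, and -0.14 with library size only. With cardiomyocyte markers, the median of the 8 genes was 0.017, again below that of all genes. The genotypes did not overlap for 1 of the 8, *Slc6a8*, whereas 15.5% of all tested genes showed no overlap, 8.30% as higher and 7.23% as lower. With scaling by cardiomyocyte markers, which raised the median of all tested genes to 0.16, *Slc6a8* overlapped and *Ckm* and *Ckb* were higher without overlap.

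**Figure D1:**
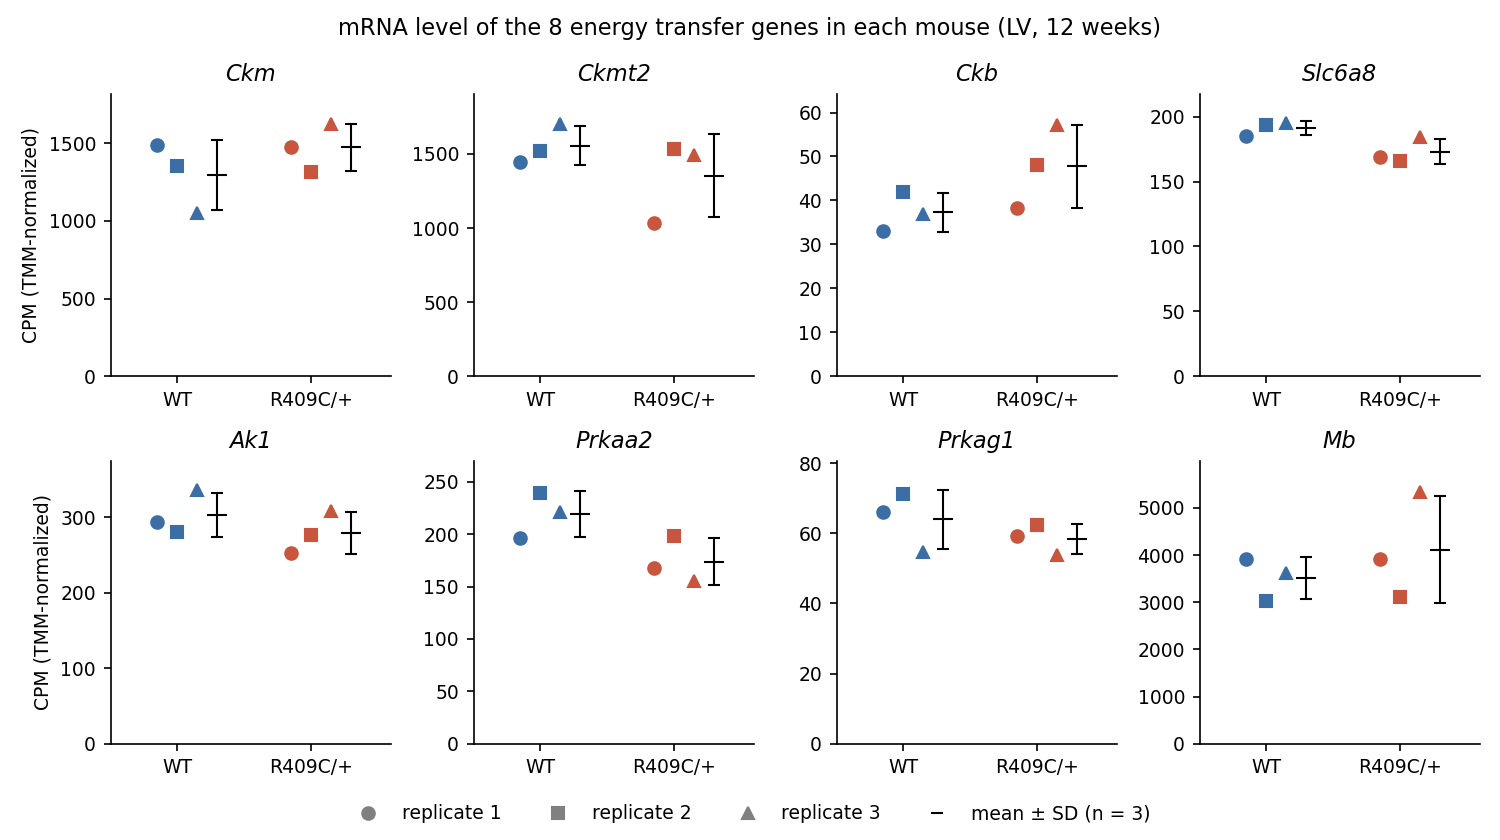
TMM-normalized CPM (vertical axes, from 0) of each gene in each mouse, with WT in blue and *Lztr1* R409C/+ in red, a symbol for each replicate number, and the mean ± SD (n = 3) beside the points. The points of the genotypes overlap in every panel except *Slc6a8*, where the WT mice lie between 185.4 and 195.2 CPM and the *Lztr1* R409C/+ mice between 166.3 and 184.2 CPM.

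*Ckm* (ENSMUSG00000030399.3, GRCm39 chromosome 7, 19138701 to 19157965, plus strand) encodes the muscle-type creatine kinase of the cytosol. Its levels were 1487, 1352, and 1051 CPM in the WT mice, against 1477, 1318, and 1625 CPM in the *Lztr1* R409C/+ mice, given here and below in the order of the replicate numbers. WT replicate 3 was the lowest of the 6 mice, and the other 2 WT mice lay within the range of the *Lztr1* R409C/+ mice. WT mice averaged 1297 ± 223.1 CPM and *Lztr1* R409C/+ mice 1473 ± 153.4 CPM (SD, n = 3 in each), a log2 fold change of 0.18 with a 95% interval of -0.24 to 0.61 (edgeR adjusted p = 0.833). The difference was 0.052 without WT replicate 3, with or without *Lztr1* R409C/+ replicate 1. It was 0.11 without *Lztr1* R409C/+ replicate 3 and 0.29 without WT replicate 1.

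*Ckmt2* (ENSMUSG00000021622.4, chromosome 13, 92001503 to 92025608, minus strand) encodes the sarcomeric form of mitochondrial creatine kinase, at the other end of the shuttle. Its level was 1443, 1521, and 1701 CPM in WT, against 1031, 1534, and 1496 CPM in *Lztr1* R409C/+ mice. Here *Lztr1* R409C/+ replicate 1, the mouse with the highest mitochondrially encoded share, was far below the other 5 mice, and the other 2 of its group lay among the WT values. The mean was 1555 ± 132 CPM in WT, against 1353 ± 280.4 CPM in *Lztr1* R409C/+ mice (SD, n = 3 in each), with a log2 fold change of -0.20 (95% interval -0.64 to 0.24, edgeR adjusted p = 0.825). With WT replicate 3 and *Lztr1* R409C/+ replicate 1 left out, the difference changed sign, to 0.031. It was -0.046 without the latter alone.

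*Ckb* (ENSMUSG00000001270.10, chromosome 12, 111635789 to 111639008, minus strand) encodes the brain-type cytosolic chain, which is also made by nonmuscle cells of the heart. WT mice had 33.0, 42.0, and 36.8 CPM and *Lztr1* R409C/+ mice 38.3, 48.0, and 57.2 CPM. Replicates 2 and 3 of the *Lztr1* R409C/+ group were above every WT mouse, and replicate 1 lay between the WT values. This was the largest positive difference of the 8 genes, at 0.36 on the log2 scale (95% interval -0.028 to 0.75), or 1.28-fold, from 37.3 ± 4.48 to 47.8 ± 9.46 CPM (SD, n = 3 in each). It did not pass (edgeR unadjusted p = 0.0662, adjusted p = 0.601). Without *Lztr1* R409C/+ replicate 3 the difference was 0.21, and without *Lztr1* R409C/+ replicate 1 it was 0.49. The unadjusted p ranged from 0.0160 to 0.475 over the 17 alternatives, and the adjusted p from 0.355 to 0.976. *Ckb* overlaps *Trmt61a* on the opposite strand, whose counts were at most 14.1% of those of *Ckb* in any mouse, and whether strand was used in counting is not given in the sources used here. For the other 7 genes, overlapping genes held at most 4.70% as many counts. Fibroblast and endothelial markers summed to overlapping ranges in the genotypes, at 808.7 to 1127 CPM in WT, against 815.8 to 1098 CPM in *Lztr1* R409C/+ mice for fibroblasts and at 681.9 to 810.9 CPM and 669.2 to 956.6 CPM for endothelium. Of these markers, 2 of 7 for fibroblasts (*Lum* and *Tcf21*) and 2 of 6 for endothelium (*Emcn* and *Fabp4*) were higher in *Lztr1* R409C/+ mice without overlap, beside 8.30% of all tested genes. Their part in the difference of *Ckb*, and that of the macrophage markers, was not tested.

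*Slc6a8* (ENSMUSG00000019558.15, X chromosome, 72716728 to 72726108, plus strand) encodes the sodium- and chloride-dependent creatine transporter of the sarcolemma. It had 185.4, 193.3, and 195.2 CPM in WT, against 168.9, 166.3, and 184.2 CPM in *Lztr1* R409C/+ mice. Every *Lztr1* R409C/+ mouse was below every WT mouse, though *Lztr1* R409C/+ replicate 3 was only just below WT replicate 1. The spread within groups was the smallest of the 8 genes, with a coefficient of variation of 2.72% in WT, against 5.6% in *Lztr1* R409C/+ mice. The log2 fold change was -0.14, with a 95% interval of -0.46 to 0.17 (edgeR adjusted p = 0.827). This separation depended on the scaling. The groups overlapped with scaling by library size only, with upper quartile scaling, after a correction for gene length, and with scaling by cardiomyocyte markers, where the difference was -0.0033 beside a median of 0.16 for all tested genes.

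*Ckm* and *Ckmt2* together held nearly all creatine kinase counts, so their balance was also compared within each mouse, as a ratio that does not depend on how the libraries are scaled. The ratio of *Ckmt2* to *Ckm* counts was 0.971, 1.13, and 1.62 in WT, against 0.698, 1.16, and 0.920 in *Lztr1* R409C/+ mice. WT replicate 3 was the highest and *Lztr1* R409C/+ replicate 1 the lowest of the 6, and the other mice overlapped. The mean log2 ratio was lower by 0.41 in *Lztr1* R409C/+ mice, with an SD of 0.379 in WT and 0.370 in *Lztr1* R409C/+ mice (n = 3 in each). Exact permutation of the 3 and 3 mice gave a two-sided p of 0.3, with 0.1 the lowest that can be reached. Without these 2 mice, the difference shrank to -0.014. The ratio of *Ckb* to *Ckm* ranged from 0.0222 to 0.0350 in WT and from 0.0259 to 0.0364 in *Lztr1* R409C/+ mice and overlapped likewise (exact permutation test, p = 0.5). Its difference of 0.15 on the log2 scale became -0.038 without WT replicate 1.

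The share of *Ckb* in all creatine kinase counts was examined after its values were seen. It was 1.12%, 1.44%, and 1.32% in WT, against 1.5%, 1.65%, and 1.80% in *Lztr1* R409C/+ mice. Every *Lztr1* R409C/+ mouse had a higher share than every WT mouse, with means of 1.29 ± 0.164% and 1.65 ± 0.148% (SD, n = 3 in each). The difference of 0.36 percentage points stayed between 0.272 and 0.448 percentage points over the 7 omissions of mice. Its two-sided exact permutation test gave p = 0.1, the smallest that 3 mice against 3 allow. Because the share was chosen on these same values, this p cannot test the separation. The ubiquitous mitochondrial form, *Ckmt1*, had between 0 and 13 counts per mouse and did not pass the filter.

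**Figure D2:**
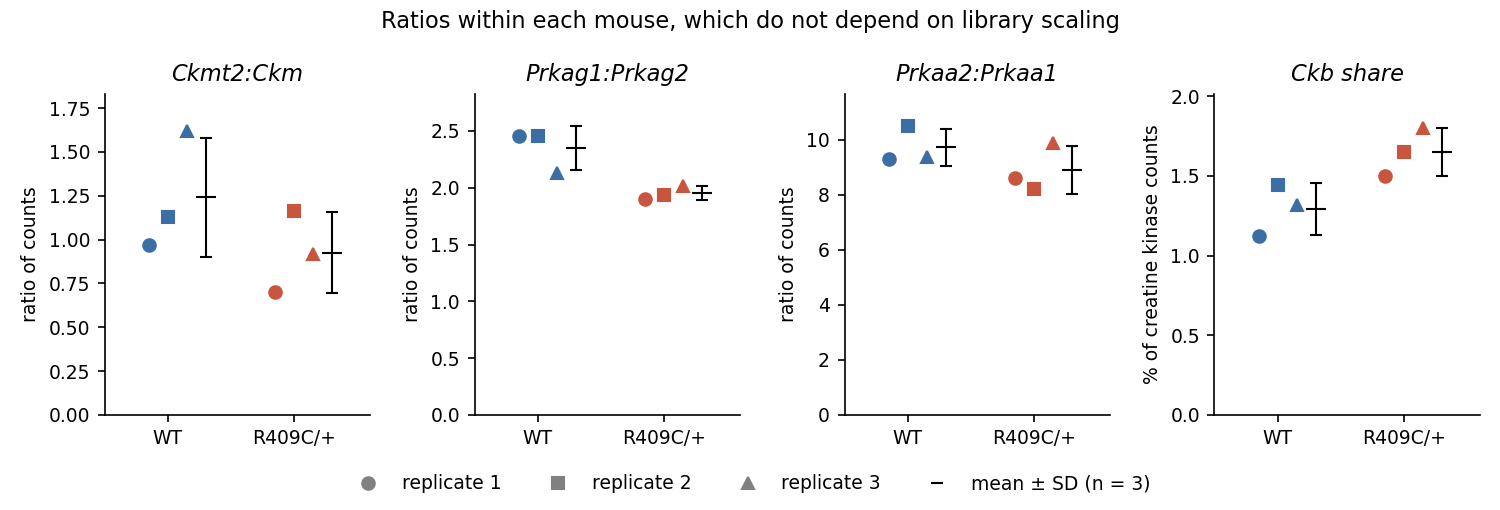
Ratios of counts within each mouse for *Ckmt2* to *Ckm*, *Prkag1* to *Prkag2*, and *Prkaa2* to *Prkaa1*, and the percent of creatine kinase counts from *Ckb* (vertical axes, from 0), with the mean ± SD (n = 3). The genotypes are separate for *Prkag1* to *Prkag2* (2.13 to 2.46 in WT, 1.90 to 2.02 in *Lztr1* R409C/+) and for the share of *Ckb* (1.12% to 1.44% and 1.5% to 1.80%), and they overlap in the other panels.

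The creatine side of the pathway was completed by the genes for creatine synthesis. *Gatm* encodes the amidinotransferase that forms guanidinoacetate from arginine and glycine, and *Gamt* the methyltransferase that turns guanidinoacetate into creatine. *Gatm* was measured at 2.83, 3.43, and 2.30 CPM in WT, against 6.35, 5.69, and 5.78 CPM in *Lztr1* R409C/+ mice. Each *Lztr1* R409C/+ mouse was above every WT mouse, also with library size only, with upper quartile scaling, after the correction for gene length, and with scaling by cardiomyocyte markers. From 2.86 ± 0.566 to 5.94 ± 0.358 CPM (SD, n = 3 in each), the log2 fold change was 1.06 with a standard error of 0.23. This did not pass after adjustment in edgeR (unadjusted p = 6.3e-04, adjusted p = 0.215), whereas DESeq2's Wald test gave an adjusted p of 0.00896. Over the alternatives, the adjusted p lay between 0.00896 and 0.976. Of all tested genes, 8.30% were likewise higher without overlap. So were all 6 macrophage markers, *Lum* and *Tcf21* of the 7 fibroblast markers, and *Emcn* and *Fabp4* of the 6 endothelial markers. The part of these cell types in the difference of *Gatm* was not tested. *Gamt* had means of 2.52 ± 0.465 and 2.58 ± 0.665 CPM (SD, n = 3 in each), with a log2 fold change of 0.037.

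*Ak1* (ENSMUSG00000026817.15, chromosome 2, 32511448 to 32528933, plus strand) encodes the cytosolic adenylate kinase of striated muscle. WT mice had 293.8, 280.8, and 336.5 CPM and *Lztr1* R409C/+ mice 252.5, 276.7, and 307.9 CPM. The lowest 2 values were those of *Lztr1* R409C/+ mice and the highest that of WT replicate 3, with overlap between the groups. The difference was -0.12 on the log2 scale (95% interval -0.47 to 0.23, edgeR adjusted p = 0.869). It was 0.014 with cardiomyocyte marker scaling, beside 0.16 for all tested genes, and its sign turned without WT replicate 3 and *Lztr1* R409C/+ replicate 1, to 0.025. The ratio of *Ak1* to *Ckm* was 0.198, 0.208, and 0.320 in WT, against 0.171, 0.210, and 0.189 in *Lztr1* R409C/+ mice, so that WT replicate 3 was set apart from the other 5 (two-sided exact permutation test, p = 0.3). Its difference of -0.32 on the log2 scale became -0.023 without WT replicate 3 and *Lztr1* R409C/+ replicate 1.

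*Ak1* supplied between 51.7% and 64.1% of all adenylate kinase counts in every mouse. Next came *Ak3*, the GTP-using form of the mitochondrial matrix, with 18.9% to 28.7%. *Ak3*, *Ak4*, *Ak6*, and *Ak9* did not pass, with log2 fold changes of 0.13, 0.031, 0.092, and -0.21 in this order, the last at under 0.3 CPM. *Ak5*, *Ak7*, and *Ak8* had at most 6 counts in any mouse and were not tested.

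*Prkaa2* (ENSMUSG00000028518.9, chromosome 4, 104886845 to 104967102, minus strand) encodes the α2 catalytic subunit of AMPK. Its levels were 196.3, 239.7, and 221.5 CPM in WT, against 167.7, 198.6, and 155.4 CPM in *Lztr1* R409C/+ mice. Only *Lztr1* R409C/+ replicate 2 reached into the WT range, just above WT replicate 1. The mean went from 219.1 ± 21.8 to 173.9 ± 22.2 CPM (SD, n = 3 in each). This was the largest negative difference of the 8 genes, at -0.33 on the log2 scale (95% interval -0.69 to 0.021), or 0.793-fold. It did not pass (edgeR unadjusted p = 0.0631, adjusted p = 0.599). All 17 alternatives left it negative, between -0.50 and -0.18, and the adjusted p ranged from 0.502 to 0.976. The smallest of these differences, -0.18, came from scaling by cardiomyocyte markers, beside a median of 0.16 for all tested genes. The largest, -0.50, came from library size only, beside a median of -0.14.

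The α1 subunit gene *Prkaa1*, expressed more widely, had means of 22.5 ± 1.32 and 19.8 ± 4.23 CPM (SD, n = 3 in each) and a log2 fold change of -0.19. The ratio of *Prkaa2* to *Prkaa1* counts was 9.31, 10.5, and 9.36 in WT, against 8.62, 8.22, and 9.89 in *Lztr1* R409C/+ mice. The groups overlapped (exact permutation, two-sided p = 0.3), and *Prkaa2* made up 89.2% to 91.3% of α subunit counts in every mouse.

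*Prkag1* (ENSMUSG00000067713.8, chromosome 15, 98710177 to 98729434, minus strand) encodes γ1, the most widespread of the AMP-binding regulatory subunits. Its levels were 66.1, 71.1, and 54.7 CPM in WT, against 59.1, 62.4, and 53.7 CPM in *Lztr1* R409C/+ mice. Replicate 3 was the lowest in both groups, and the groups overlapped. Its difference of -0.13 on the log2 scale had a 95% interval of -0.47 to 0.21 (edgeR adjusted p = 0.856), and it was 0.021 with cardiomyocyte marker scaling, beside 0.16 for all tested genes. It was -0.051 without WT replicate 2, -0.074 without *Lztr1* R409C/+ replicate 3, and -0.23 without WT replicate 3. The value was -0.24 without WT replicate 3 and *Lztr1* R409C/+ replicate 1, and -0.22 after the correction for gene length.

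The ratio of *Prkag1* to *Prkag2*, the γ2 subunit gene in which mutations cause a cardiomyopathy with glycogen storage, was 2.46, 2.46, and 2.13 in WT, against 1.90, 1.94, and 2.02 in *Lztr1* R409C/+ mice. All 3 *Lztr1* R409C/+ mice were below all 3 WT mice. The mean log2 ratio was 1.23 ± 0.119 in WT, against 0.97 ± 0.044 in *Lztr1* R409C/+ mice (SD, n = 3 in each), lower by 0.26 in the latter. The p of the two-sided exact permutation test was 0.1, the smallest possible, and 0.45 after Benjamini-Hochberg adjustment over the 6 ratios compared. Leaving out mice kept the difference between -0.33 and -0.23. Counted as shares, *Prkag1* made up 66.1% to 69.8% of γ subunit counts in WT, against 63.9% to 65.1% in *Lztr1* R409C/+ mice.

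None of the 7 AMPK subunit genes passed in either direction, and 3 were higher and 4 lower, with a median of -0.083, or of 0.060 beside 0.16 for all tested genes with scaling by cardiomyocyte markers. The median was -0.15 without WT replicate 3 and -0.046 without *Lztr1* R409C/+ replicate 3, each with 2 higher and 5 lower. Without WT replicate 3 and *Lztr1* R409C/+ replicate 1, it was -0.14. The log2 fold changes of those not yet named were 0.14 for *Prkag2*, 0.15 for *Prkag3*, -0.083 for *Prkab2*, and 0.060 for *Prkab1*. The β1 subunit gene *Prkab1* had 29.3, 26.8, and 12.0 CPM in WT, against 23.2, 21.3, and 26.4 CPM in *Lztr1* R409C/+ mice. WT replicate 3 had the lowest value of the 6 mice, and *Prkab1* supplied 15.2% of its β subunit counts beside 28.0% to 34.7% in the other 5 mice. WT replicates 1 and 2 were above every *Lztr1* R409C/+ mouse, so that the positive difference of *Prkab1* rested on WT replicate 3 alone.

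*Mb* (ENSMUSG00000018893.16, chromosome 15, 76899686 to 76940711, minus strand) encodes myoglobin and was the most abundant of the 8 genes. Its levels were 3907, 3025, and 3613 CPM in WT, against 3917, 3101, and 5332 CPM in *Lztr1* R409C/+ mice. *Lztr1* R409C/+ replicate 3 stood above the other 5 mice, which lay in a common range for both genotypes. With means of 3515 ± 449.1 and 4117 ± 1129 CPM (SD, n = 3 in each), the log2 fold change was 0.23 (95% interval -0.30 to 0.76, edgeR adjusted p = 0.834). It was -0.0024 without *Lztr1* R409C/+ replicate 3. After the correction for gene length it was 0.10, beside a median of -0.0083 for all tested genes. The ratio of *Mb* to *Ckm* was 2.63, 2.24, and 3.44 in WT, against 2.65, 2.35, and 3.28 in *Lztr1* R409C/+ mice, with overlap and a difference of 0.0063 on the log2 scale (two-sided exact permutation test, p = 0.9). This difference was -0.14 without WT replicate 2 and 0.17 without WT replicate 3.

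**Figure D3:**
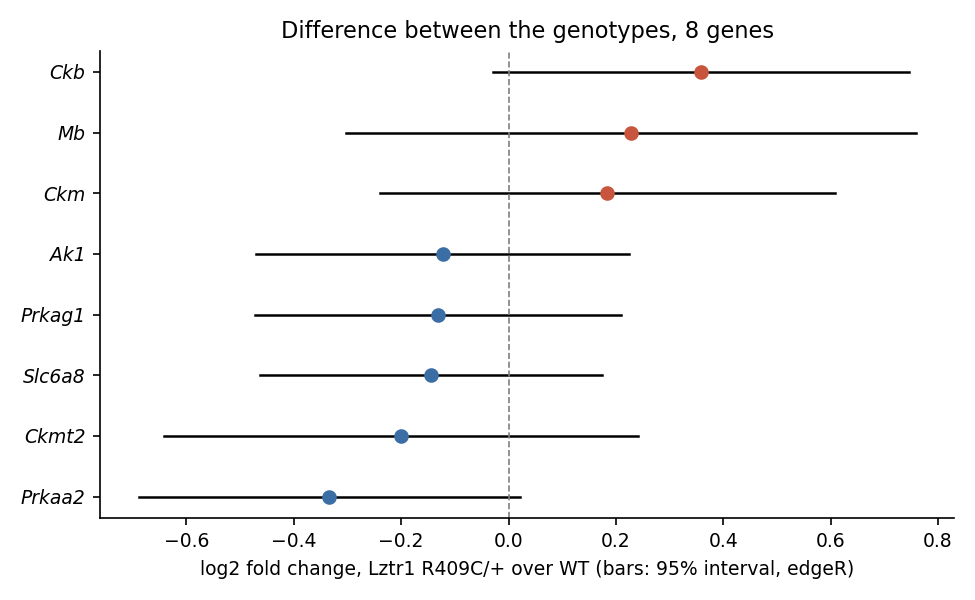
Log2 fold change of *Lztr1* R409C/+ over WT mice (horizontal axis) for each gene, with the 95% interval from edgeR's fit to 3 mice per group. The intervals of all 8 genes include 0, from *Prkaa2* at -0.33 to *Ckb* at 0.36.

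Per length of transcript, *Mb* was the most abundant of the 8 genes, with 2970 ± 650.7 CPM per kilobase of the canonical transcript (SD, n = 6 mice), and *Ak1* had 138.2 ± 13.7. *Ckmt2* and *Ckm* lay between them, at 929.3 ± 143.8 and 341.3 ± 48.5 CPM per kilobase. Per kilobase of coding sequence, *Ckm* and *Ckmt2* were at 1212 ± 172.1 and 1157 ± 179 CPM and their ranges over the 6 mice overlapped, so that their order depended on the length used. It was also mixed within each genotype on this scale, since *Ckm* was above *Ckmt2* in WT replicate 1 and below it in WT replicates 2 and 3, and above it in *Lztr1* R409C/+ replicates 1 and 3 and below it in replicate 2. The other 4 genes also changed order with the length. They lay between 24.7 for *Prkaa2* and 45.8 for *Slc6a8* per kilobase of canonical transcript, where each overlapped with its neighbour in range. By mean CPM over the 6 mice without regard to length, *Mb* was 25th among the tested genes, *Ckmt2* and *Ckm*, whose order was reversed between the genotype means, 45th and 46th, and *Ckb* 2715th.

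The pattern over the 6 mice was also set beside those of 3530 abundant genes, by the root mean square difference of centred log2 CPM. *Dmwd* was most like *Ckm*, with a difference of 0.0325, and *St6galnac6* followed with 0.0425. The nearest genes to *Ckmt2* were *Ppp2r1a* (0.0288) and *Creb3l2* (0.0473). *Ak1* was nearest to *Arfgap2* (0.0276) and *Mylk3* (0.0302), a kinase of the cardiac myosin light chain. *Prkag1* was nearest to *Ahcyl1* (0.0302) and *Blcap* (0.0396), and *Prkaa2* to *Lmbrd1* (0.0434) and *Nhlrc2* (0.0449). *Prrc1* (0.0369) and *Dele1* (0.0409) were most like *Slc6a8*. The distances were larger for *Mb*, whose nearest genes were *Cox6b1* (0.0807), of cytochrome c oxidase, and *Pebp1* (0.082), and for *Ckb*, with *Ccdc80* (0.0832) and *Crispld2* (0.0874). These distances are not scaled to the variation of each gene itself. That variation, as the root mean square of centred log2 CPM, ranged from 0.0888 for *Slc6a8* to 0.271 for *Mb* and was 0.261 for *Ckb*. None of the 8 genes was among the 2 nearest genes of another.

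**Figure D4:**
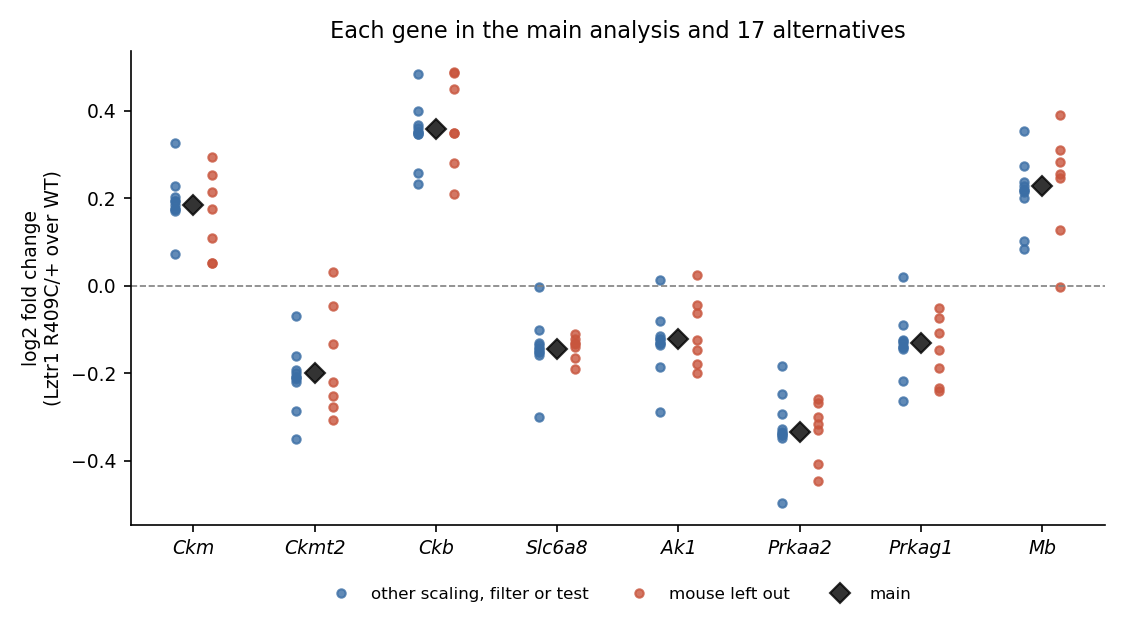
Log2 fold change of *Lztr1* R409C/+ over WT mice (vertical axis) for each gene in the main analysis (diamond), with another scaling, filter, or test (blue), and with 1 or 2 mice left out (red). *Prkaa2* and *Slc6a8* stay below 0 and *Ckb* and *Ckm* above 0 throughout, whereas *Ckmt2*, *Ak1*, *Prkag1*, and *Mb* cross 0 in at least 1 of the 17 alternatives.

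The pathway around the 8 genes was described with 6 lists of 89 genes in all, which include the 8. None of their tested genes passed in edgeR after adjustment. DESeq2's Wald test called 1, *Gatm*, beside 1.06% of all genes to which it gave an adjusted p. Of the phosphagen list, 6 of 7 genes were tested, with 4 higher and 2 lower and a median log2 fold change of 0.11. This median was -0.041 without *Lztr1* R409C/+ replicate 3, 0.010 without WT replicate 3, and 7.85e-05 with library size only (all tested genes -0.14). Without WT replicate 1 it was 0.28, but over all 7 genes, since *Ckmt1*, with its few counts, then passed the filter. Of the enzymes and carriers of adenine nucleotides, 25 of 29 were tested, with 14 higher, 11 lower, and a median of 0.027. With library size only, the median was -0.14, as for all tested genes (5 higher, 20 lower). The median turned to -0.047 after the correction for gene length (10 higher, 15 lower), and to -0.029 without *Lztr1* R409C/+ replicate 3 (9 higher, 16 lower), and it was also below 0 without WT replicate 1 (-0.011) or 2 (-0.034). Among these, *Nme2*, a nucleoside diphosphate kinase gene, had the smallest unadjusted p of the higher genes, at 142.5 ± 5.05 CPM in WT, against 188.9 ± 45.6 CPM in *Lztr1* R409C/+ mice (SD, n = 3 in each) with overlap. Of the lower genes it was *Adsl*, which encodes adenylosuccinate lyase of purine synthesis and the purine nucleotide cycle. *Adsl* had 52.4, 53.8, and 53.5 CPM in WT, against 41.1, 45.7, and 43.9 CPM in *Lztr1* R409C/+ mice, without overlap, with a log2 fold change of -0.29 (edgeR adjusted p = 0.599). In this list, 2 of 25 genes were lower without overlap, beside 7.23% of all tested genes. The adenine nucleotide translocase gene of heart muscle, *Slc25a4*, which was named after its values were seen, had 1576, 1486, and 2595 CPM in WT, against 1861, 1883, and 2639 CPM in *Lztr1* R409C/+ mice, so that replicate 3 was the highest in both groups.

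The genes that act on AMPK comprised 16 upstream kinases, their scaffolds, phosphatases, folliculin and its partners, and sestrins, all tested, with 5 higher, 11 lower, and a median of -0.14. With 1 mouse left out, this median ranged from -0.222 without *Lztr1* R409C/+ replicate 2 to -0.0945 without *Lztr1* R409C/+ replicate 3. Without WT replicate 3 and *Lztr1* R409C/+ replicate 1, it was -0.225. With scaling by cardiomyocyte markers, of which 8 of 11 were lower with a median of -0.21, the median of the list was 0.012 beside 0.16 for all tested genes (9 higher, 7 lower), and the part of these markers was not tested. At an unadjusted p under 0.05, 3 of 16 were lower beside 2.86% of all tested genes, namely *Fnip2*, *Flcn*, and *Sesn1*. Of the whole list, 3 of 16 were lower without overlap, the same 3 genes, beside 7.23% of all tested genes. *Flcn* encodes folliculin, which with its partners FNIP1 and FNIP2 binds AMPK and acts on the lysosomal control of TORC1. *Fnip2* had 42.9, 53.8, and 52.1 CPM in WT, against 36.8, 31.5, and 28.8 CPM in *Lztr1* R409C/+ mice, a difference of -0.62 on the log2 scale (standard error 0.16, edgeR adjusted p = 0.274). *Flcn* had 54.2, 44.3, and 52.4 CPM in WT, against 34.5, 38.0, and 39.5 CPM in *Lztr1* R409C/+ mice, with a log2 fold change of -0.43 (edgeR adjusted p = 0.465). *Sesn1*, which encodes a stress-induced leucine sensor, differed by -0.35. *Camkk1*, a calcium-dependent AMPK kinase gene, was the higher gene with the smallest unadjusted p, at 1.07 ± 0.223 CPM in WT, against 1.56 ± 0.0948 CPM in *Lztr1* R409C/+ mice (SD, n = 3 in each) without overlap. *Flcn* and *Sesn1* were named after their values were seen.

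The substrates of AMPK had the most one-sided list, of which 17 of 18, or 94.4%, had a lower level in *Lztr1* R409C/+ mice, beside 48.6% of all tested genes. Their median log2 fold change was -0.21, with a range of -0.33 (without *Lztr1* R409C/+ replicate 3) to -0.14 (without *Lztr1* R409C/+ replicate 1) when 1 mouse was left out. The only higher gene was *Mff*, whose product recruits the fission GTPase to mitochondria, at 0.022. At an unadjusted p under 0.05, 2 of 18 genes were lower beside 2.86% of all tested genes, *Tbc1d4* and *Acaca*, and the genotypes did not overlap for these and for *Rptor*, which is 3 of 18 beside 7.23% of all tested genes. *Tbc1d4* encodes the Rab GTPase-activating protein that holds the glucose transporter GLUT4 inside the cell. It had 108.3, 107.1, and 108.0 CPM in WT, against 63.6, 94.3, and 74.9 CPM in *Lztr1* R409C/+ mice, with a log2 fold change of -0.47 (edgeR adjusted p = 0.471). The 3 WT mice were nearly equal, with an SD of 0.649 CPM, and the 3 *Lztr1* R409C/+ mice were spread below them. *Acaca*, which encodes acetyl-CoA carboxylase 1 of fatty acid synthesis, had 10.1, 11.7, and 10.5 CPM in WT, against 6.51, 7.43, and 9.02 CPM in *Lztr1* R409C/+ mice. *Acaca* and *Rptor* were named after their values were seen. The number of lower substrate genes was 12 with scaling by cardiomyocyte markers, which moved the median of all genes to 0.16 and that of the list to -0.085. It was 13 with upper quartile scaling, 15 after the correction for gene length, and 18 with library size only, which moved the median of all genes to -0.14. With 1 mouse left out, it was 14 to 18. The cardiomyocyte markers moved the same way, with 8 of 11 lower and a median of -0.21, and their part in the count was not tested.

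**Figure D5:**
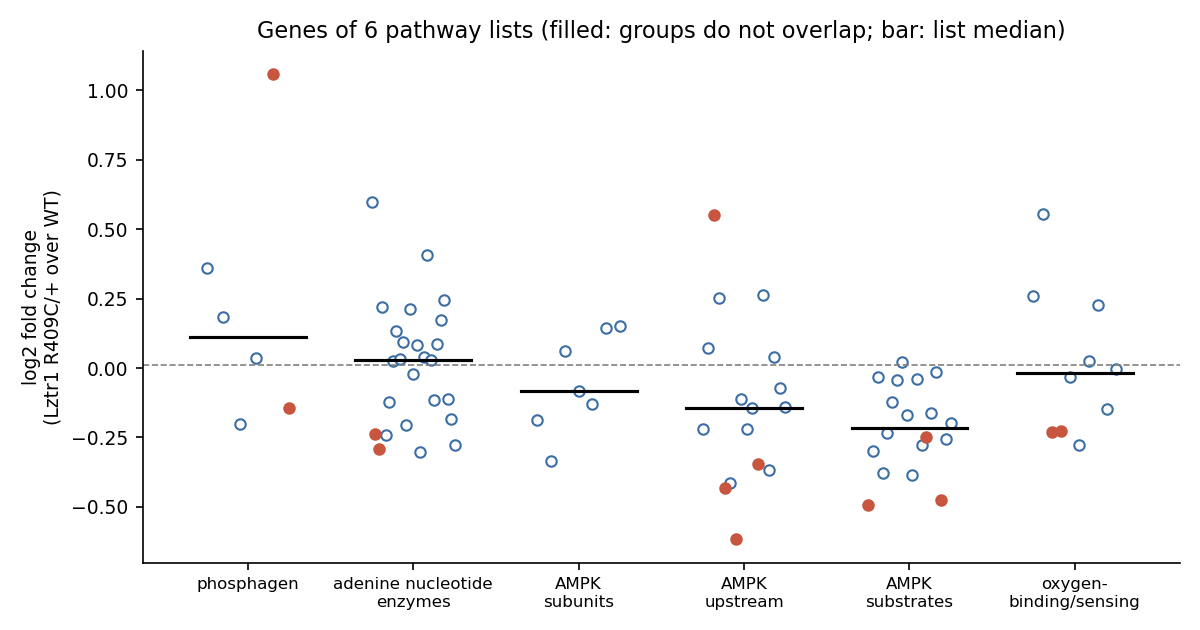
Log2 fold change of *Lztr1* R409C/+ over WT mice (vertical axis) for each tested gene of the 6 pathway lists (points), with the list median (bar) and the median of all tested genes (dashed line, 0.012). Filled points mark genes whose genotypes do not overlap; 17 of the 18 AMPK substrates lie below 0, and the highest point is *Gatm* at 1.06.

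Of the 12 genes listed for oxygen binding and oxygen sensing, 10 were tested, with 4 higher and 6 lower and a median log2 fold change of -0.018. The median was 0.12 beside 0.16 for all tested genes with scaling by cardiomyocyte markers, and 0.025 beside 0.055 with upper quartile scaling. With 1 mouse left out, the filter kept 10 or 11 of these genes, so that the medians are not all of the same set. They ranged from -0.13 without *Lztr1* R409C/+ replicate 1 (11 genes) to 0.022 without WT replicate 3 (10 genes). Without both of these mice, the median was 0.023, with 6 higher and 4 lower. *Cygb*, which encodes the globin of fibroblasts and related cells, had 30.5, 29.5, and 20.8 CPM in WT, against 27.6, 40.2, and 50.9 CPM in *Lztr1* R409C/+ mice. The groups overlapped through *Lztr1* R409C/+ replicate 1, and the difference of 0.56 did not pass (edgeR unadjusted p = 0.0297, adjusted p = 0.532). The lower gene with the smallest unadjusted p was *Hif1a*, the oxygen-regulated transcription factor gene, with 115.7 ± 15.8 and 95.4 ± 11.7 CPM (SD, n = 3 in each) and a log2 fold change of -0.28. The prolyl hydroxylase genes *Egln1* and *Egln3*, whose products mark the HIF proteins for degradation, were lower without overlap, by 0.23 each on the log2 scale, which is 2 of 10 beside 7.23% of all tested genes, and were named after their values were seen. *Ldha*, the lactate dehydrogenase gene, named likewise, was at 376.5 to 381.3 CPM in WT, against 373.0 to 392.9 CPM in *Lztr1* R409C/+ mice. Neuroglobin (*Ngb*) had 0 counts in every mouse.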

How the data were processed

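mRNA-Seq of 6 mice was used. The authors trimmed reads with Trim Galore, aligned them to GRCm39 with HISAT2, excluded rRNA, and ran StringTie; the annotation release and the counting step are not given in the sources used here. What the authors deposited are raw counts, whole numbers for each gene and mouse. A deposited table of the authors' own edgeR comparison (log2 fold changes, average log2 CPM, p-values, adjusted p-values) served only for gene names, which it gives for 12629 genes.

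The comparison used edgeR 4.0.16 under R 4.3.3 (filterByExpr, TMM, robust quasi-likelihood test, two-sided, Benjamini-Hochberg over 17212 genes, threshold 0.05). The common biological coefficient of variation was 26.1%. Log2 ratios of counts within a mouse were compared by exact permutation. The fewest counts of any of the 8 genes in a mouse were 2120 (counting error 2.17%), and 3 counts corresponded to 0.0317 to 0.0541 CPM; these cover counting error only. Replicates are separate mice. Positions and lengths came from GENCODE M39.

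The genes, lists, tests, and alternatives were chosen with earlier results of these data known. Named were the 8 genes, every tested gene of the phosphagen list, AMPK subunits, and adenylate kinases, and, in each other list, the higher and the lower gene with the smallest p, and the 2 abundant genes (mean log2 CPM above 5) nearest in pattern to each of the 8. The exceptions are stated where they occur, and not every gene under this rule is reported here. The alternatives were scaling by size factors of DESeq2, by library size, by upper quartile, and by cardiomyocyte markers, the Wald test of DESeq2 1.42.0, no filter, a minimum of 10 counts in each mouse, mitochondrially encoded genes removed, a replicate block, a lowess correction for gene length, 0.5 counts added to ratios, an adjusted threshold of 0.1, no adjustment, and omission of each mouse. Omission of WT replicate 3 with *Lztr1* R409C/+ replicate 1, the share of *Ckb*, and list counts after the length and cardiomyocyte corrections were chosen after seeing the data. Of these steps, the main edgeR fit and the Wald test of DESeq2 were tested on simulated counts.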

Additional observations from a re-analysis of the deposited data

How the results depend on the processing

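Against 6 higher and 1 lower gene in the main analysis, the numbers past the threshold were 15 and 6 with library size only and 143 and 15 with DESeq2's Wald test. They were 19 higher without a filter, 0 higher with the replicate block or without WT replicate 3 and *Lztr1* R409C/+ replicate 1, 0 lower with at least 10 counts in every mouse, 15 higher at an adjusted p under 0.1, and 993 and 493 at an unadjusted p under 0.05. With 1 mouse left out, they ranged from 1 to 3 higher and from 1 to 2 lower. None of the 8 genes passed under any of the 17 alternatives. Signs turned for *Ak1* (0.014) and *Prkag1* (0.021) with cardiomyocyte marker scaling, which moved the median of all tested genes to 0.16, for *Ckmt2* (0.031) and *Ak1* (0.025) without WT replicate 3 and *Lztr1* R409C/+ replicate 1, and for *Mb* without *Lztr1* R409C/+ replicate 3 (-0.0024). With 1 mouse left out in turn, log2 fold changes ranged from -0.0024 to 0.39 for *Mb*, from -0.31 to -0.046 for *Ckmt2*, and from -0.20 to -0.044 for *Ak1*, and the log2 ratios from -0.59 to -0.20 for *Ckmt2* to *Ckm* and from -0.45 to -0.097 for *Ak1* to *Ckm*. The same pair of omissions moved the log2 ratio of *Ckmt2* to *Ckm* to -0.014 and that of *Ak1* to *Ckm* to -0.023, and the lower phosphagen genes to 1. Replicate numbers did not pair the mice (correlations of -0.0013, 0.022, and -0.057 for numbers 1, 2, and 3), and with the replicate block the log2 fold changes were 0.19 for *Ckm*, -0.22 for *Ckmt2*, 0.35 for *Ckb*, 0.20 for *Mb*, and -0.34 for *Prkaa2*, with no call changed. With library size only, which moved the median of all tested genes to -0.14, higher genes were 5 and lower genes 20 for adenine nucleotide enzymes, and higher genes were 1 for AMPK subunits, 3 for upstream genes, and 0 for substrates. Cardiomyocyte marker scaling gave 7 lower adenine nucleotide genes, 5 higher and 2 lower AMPK subunits, 9 higher and 7 lower upstream genes, 6 higher substrates, and 7 higher and 3 lower oxygen genes. Higher substrates were 5 with upper quartile scaling, 3 after the length correction, and 0 to 4 with 1 mouse left out, and higher adenine nucleotide genes were 9 to 15. List counts under another scaling move with this shift common to all genes, and the cause of the other changes was not tested. *Gatm* passed with DESeq2's Wald test (1.05). Counting error, at most 2.17% for any of the 8 genes, was below the spread between mice.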
